A study of Mus musculus with 15 samples.

Results

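The MEK inhibitor U0126 was compared with vehicle in mammospheres, spheres that cells of primary mammary tumours form in suspension. The members are 6 of the study's 15 arrays, chosen by their treatment labels: 3 of cultures given U0126 and 3 of cultures given vehicle. All tumours came from FVB/N mice of the MMTV-PyMT genotype, in which the mouse mammary tumour virus promoter drives the polyoma middle T oncogene in mammary epithelium. Both groups were kept unattached in serum-free medium with EGF, FGF and B27 for 10 days and then with the agent for 2 days, 12 days in all. The remaining arrays, also 3 per group, hold mammospheres given DAPT (a Notch inhibitor), TAE226 (FAK) or PP2 (Src). They serve below to show where U0126 stood apart. They also entered the choice of genes and probe sets tested and the estimate of spread behind the p-values. The study concerns the tyrosine phosphatase Shp2 and senescence. Every culture carried the oncogene and received EGF and FGF, so no group here shows MEK inhibition without them. The sources used here give neither doses nor whether the replicates came from separate mice or cultures, so the p-values cover only the spread among these samples, which the labels call biological replicates.

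MEK1 and MEK2 are the kinases that activate ERK1 and ERK2, the last step of the cascade that carries growth factor signals from receptor tyrosine kinases through RAS and RAF. Active ERK switches on early transcription factors of the EGR, FOS and ETS families, and also the phosphatases and Sprouty proteins that damp the pathway in return. In the mammary gland, ERK signalling takes part in branching, in survival and in the balance between proliferation and milk-producing differentiation.

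Values are log2 of the deposited signal, with 1 probe set per gene. A gene was tested if 3 or more of the 15 arrays read it above their median, and it was called when limma's Benjamini-Hochberg adjusted p fell below 0.05. A gene below the median on all 3 arrays of a group is called dim there, and its fold is a lower bound against that median. Of 11458 genes tested, 4660 (40.7%) were called, 2219 higher (19.4%) and 2441 lower (21.3%) under U0126. Counts for the gene lists below are to be read against these shares. With each array centred on its own median, 1198 were higher and 2428 lower, so the higher share of the calls was 33.0% in place of 47.6%. Most calls were small: 2752 of them (59.1%) were under 0.5 on the log2 scale, and 647 genes (5.65%) changed at least 2-fold, 316 higher (2.76%) and 331 lower (2.89%). Fitted changes of 3 or more numbered 59 falls and 21 rises, of which 34 and 8 were dim in a group; with dim genes at their bound, 33 falls and 16 rises reached that size. The arrays of the 2 groups did not overlap in 5516 genes (48.1%). Of 2755 probe sets that name no gene, 9.80% were higher and 7.11% lower. Of the 4660 calls, 3343 (71.7%) were made again in the same direction whichever of the 6 arrays was left out, and of the 647 changes of at least 2-fold 612 (94.6%) were.

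**Figure D1:**
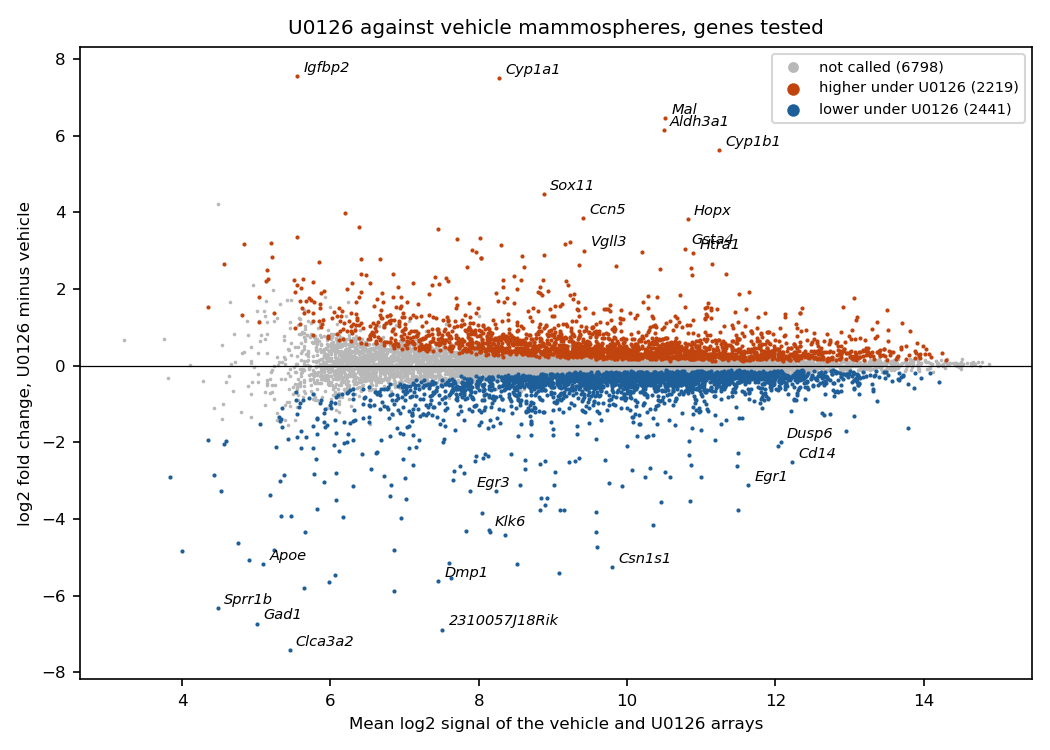
Each point is a gene tested, with the mean log2 signal of the 6 arrays on the horizontal axis and the log2 fold change of U0126 over vehicle on the vertical axis. Igfbp2, Cyp1a1, Mal, Aldh3a1 and Cyp1b1 stand apart above, and 59 genes have a fitted fall of 3 or more, 34 of them dim in a group.

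Luminal epithelial markers were bright in both groups. Keratin 8 (Krt8) read 14.01, 13.90 and 13.89 on the vehicle arrays and 14.19, 14.37 and 14.10 on the U0126 arrays, and Epcam, Cdh1, Krt18 and Krt19 lay above the array median on all 6. Markers of other cells were mostly dim. Of 11 fibroblast markers only Postn lay above the median on all 6 arrays, 12 of 14 lymphocyte markers and 10 of 11 markers of endothelium, fat and red cells lay below it on every array, and so did 14 of 19 of macrophages and neutrophils. In this last list the pan-leukocyte gene Ptprc was below the median on all 6 arrays, while the members above it on all 6, Cd14 and S100a8, both fell. Cd14, which luminal progenitor cells also express, read 13.44, 13.43 and 13.57 in vehicle and 10.99, 10.90 and 11.02 under U0126, and S100a8 read 7.83, 7.73 and 7.67 against 6.62, 6.29 and 6.49. The list's summed signal was 11730 to 12971 in vehicle and 2458 to 2800 under U0126, most of it from Cd14; the other 18 markers summed to 662 to 813 and 549 to 722. The actin 3′ to 5′ signal ratio, higher for shortened RNA, was 1.42 ± 0.06 in vehicle and 1.28 ± 0.07 under U0126 (SD, n = 3 each); Gapdh ratios were 0.777 ± 0.003 and 0.791 ± 0.017. The part of RNA length in the results was not tested. The running numbers in the labels follow the groups, so an effect of array order cannot be told apart from treatment. In bulk samples such as these, fewer cells of a type and less RNA per cell cannot be told apart either.

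The cascade itself changed little at the RNA level, and in both directions. Of 20 members tested 6 rose, 5 fell and 9 were not called; among the 8 RAS, RAF, MEK and ERK genes median centring gave 1 rise and 3 falls in place of 3 and 2. Gab1, the docking protein that carries Shp2 to active receptors, rose most: it read 10.77, 10.86 and 10.80 on the vehicle arrays and 11.71, 11.76 and 11.62 under U0126 (log2 fold change 0.88, SE 0.06, limma adjusted p = 4.38e-09). Its relative Gab2 rose by 0.47 and the RAF kinase Araf by 0.42. The gene of the drug's own target MEK1, Map2k1, fell from 11.76, 11.92 and 11.71 to 11.45, 11.49 and 11.38 (−0.36, SE 0.06, adjusted p = 0.000123), with no overlap between the groups. That of MEK2, Map2k2, did not pass (−0.02, adjusted p = 0.859). Nras fell by 0.36 on the log2 scale, and Rps6ka3, a kinase that ERK activates, fell from a mean of 11.26 to 10.65 (−0.61, SE 0.06, adjusted p = 4.66e-07). Ptpn11, which encodes Shp2, stood at 0.06 (adjusted p = 0.381) and passed only where all its probe sets were averaged.

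The feedback genes of the pathway fell unevenly. Among 8 dual-specificity phosphatases, which remove phosphate from MAP kinases, 4 fell and 2 rose (median −0.21, against 0.002 over all genes tested). Dusp4 read 10.21, 10.25 and 10.24 on the vehicle arrays and 8.85, 8.67 and 8.65 under U0126 (−1.51, SE 0.10, adjusted p = 4.26e-09). Dusp14 went the other way, from 8.56, 8.65 and 8.81 to 9.37, 9.50 and 9.50 (0.78, SE 0.09, adjusted p = 2.18e-06), and Dusp1 rose by 0.52. None of these 3 genes overlapped between the groups. The 11 Sprouty, Spred and related inhibitors tested held 5 falls and no rise (median −0.20). Spry2 fell from 11.02, 11.09 and 10.68 to 9.70, 9.82 and 10.19 (−1.02, SE 0.15, adjusted p = 2.79e-05). Spry4 fell by 0.85 on the log2 scale, a call that ended without vehicle replicate 1 or 2 or U0126 replicate 2. Errfi1, which blocks EGF receptor kinases, and the RAS-GTPase activator Rasa1 each fell by 0.61 on the log2 scale. No fall in either list was also called, in the same direction, against every other inhibitor. Dusp4 had means of 8.72 under U0126, 8.69 under DAPT, 9.55 under TAE226 and 8.39 under PP2. The rise of Dusp1 was called against each of them.

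The transcription factors induced by ERK split between falls and rises. Of 23 immediate early and AP-1 genes tested, 8 fell and 7 rose, with 3 rises left under median centring. Over all genes tested, 21.3% fell and 19.4% rose. Egr3, an EGR family zinc finger factor, read 9.61, 9.71 and 9.25 on the vehicle arrays and 6.21, 6.14 and 6.39 under U0126 (−3.28, SE 0.13, adjusted p = 6.24e-12). Egr2 was dim under U0126, at 0.78, 1.44 and 4.92 against 7.52, 7.45 and 7.36, and fell at least 2.24-fold (adjusted p = 1.67e-05). Egr1 fell by 3.11 on the log2 scale. Klf5, a growth-promoting factor of epithelia, rose from 9.96, 9.86 and 10.22 to 11.10, 11.22 and 11.16 (1.15, SE 0.10, adjusted p = 5.93e-08). Fosl1, an AP-1 partner, was dim under U0126 and did not pass (−1.53, adjusted p = 0.0706), though it did with median centring, with a pseudocount of 50 and with the 6 arrays fitted alone.

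Among 11 ETS factors, 5 fell and 2 rose, against 21.3% and 19.4% of all genes. Etv5 read 11.92, 12.06 and 11.54 on the vehicle arrays and 10.20, 9.98 and 10.28 under U0126 (−1.69, SE 0.16, adjusted p = 4.06e-07), while its relative Etv4 did not pass (−0.16, adjusted p = 0.625) unless its probe sets were averaged. A second bright probe set of Etv4 stood at −2.11 and was called lower. Ehf and Elf5, ETS factors of luminal cells, fell by 0.74 and 0.65 on the log2 scale, and Ets1 rose by 0.89. Other genes downstream of ERK were as mixed, with 6 rises (3 under median centring) and 5 falls of 18 tested. Phlda1 fell from 13.79, 13.72 and 13.66 to 12.36, 12.38 and 12.46 (−1.32, SE 0.05, adjusted p = 1.64e-12), and Ptgs2, the inducible prostaglandin synthase, rose from 11.08, 11.14 and 11.19 to 12.47, 12.23 and 12.48 (1.26, SE 0.08, adjusted p = 2.36e-09). The groups were fully separate in both.

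Receptor tyrosine kinases outside the ERBB family moved both ways: 5 of 17 rose (3 under median centring) and 4 fell. Over all genes, 19.4% rose and 21.3% fell. Axl, the GAS6 receptor, rose from 7.87, 7.98 and 8.12 to 9.61, 9.38 and 9.45 (1.49, SE 0.11, adjusted p = 1.55e-08). Ror1, a WNT5A receptor, rose by 1.36 and the FGF receptor Fgfr2 by 1.06, while Fgfr1 fell by 0.40 on the log2 scale. Lrig1, which promotes breakdown of ERBB receptors, fell from 10.71, 10.85 and 10.64 to 9.65, 9.69 and 9.76 (−1.04, SE 0.07, adjusted p = 7.87e-09). Of 7 EGF-family ligands tested, epiregulin (Ereg) rose by 0.76 and betacellulin (Btc) fell by 0.39 on the log2 scale.

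Large rises were found among genes of the aryl hydrocarbon receptor (AHR), a transcription factor that aromatic compounds activate and that binds a short DNA core, GCGTG. Of 9 oxidation enzymes and other targets tested, 8 rose and 1 fell (median 1.25). Cyp1a1, which oxidises aromatic compounds, read 5.43, 3.40 and 4.74 in vehicle, where it was dim, and 12.09, 11.95 and 12.03 under U0126, a rise of at least 56.7-fold (adjusted p = 1.16e-09). Aldh3a1, an aldehyde dehydrogenase, rose 71.1-fold, from 7.43, 7.36 and 7.47 to 13.48, 13.73 and 13.50. Tiparp, which represses AHR in feedback, rose from 9.84, 9.69 and 9.83 to 11.66, 11.66 and 11.57 (1.84, SE 0.06, adjusted p = 8.32e-13). Ahr itself fell by 0.61 on the log2 scale (adjusted p = 2.38e-06), a call that ended when all its probe sets were averaged (adjusted p = 0.0799). The promoters of 3 of these genes are shown because they hold the core sequence, in capitals on either strand (GCGTG or CACGC), in the bases before the start in RefSeq's GRCm38.p6 annotation:
Cyp1a1, chr9:57697529-57697593, plus strand: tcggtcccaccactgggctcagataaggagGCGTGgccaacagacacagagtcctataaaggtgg
Cyp1b1, chr17:79715103-79715167, minus strand: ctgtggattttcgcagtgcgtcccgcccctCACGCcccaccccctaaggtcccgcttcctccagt
Tiparp, chr3:65528247-65528311, plus strand: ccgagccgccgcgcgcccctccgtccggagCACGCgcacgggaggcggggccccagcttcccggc
The core starts 54 bases before the start of Cyp1a1, 76 before that of Cyp1b1 and 170 before that of Tiparp. It was found in 5 of the 7 promoters at hand of AHR genes that rose and in 32.4% of all 32851 promoters of the same 300 bases, so a match is common and says nothing on binding.

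Enzymes of glutathione, the cell's main thiol antioxidant, and other redox enzymes rose as a group. Of 27 synthesis and redox enzymes, 19 rose and none fell, 13 of them under median centring (median 0.40). Gclc, the catalytic subunit of the rate-limiting step of glutathione synthesis, read 10.45, 10.39 and 10.46 on the vehicle arrays and 11.71, 11.73 and 11.73 under U0126 (1.29, SE 0.05, adjusted p = 5.59e-12), and its partner Gclm rose by 0.88. The glutathione peroxidase Gpx2 rose from 6.59, 6.61 and 6.24 to 9.53, 9.46 and 9.36 (2.97, SE 0.35, adjusted p = 3.96e-06), and the carbonyl reductase Cbr3 by 2.09. Of 17 glutathione transferases, which join glutathione to foreign compounds, 8 rose and 2 fell. Gsta4 read 9.21, 9.26 and 9.30 in vehicle and 12.23, 12.41 and 12.28 under U0126 (3.05, SE 0.06, adjusted p = 2.13e-15). The bright Gstp1 rose by 1.18 and the microsomal Mgst2 by 1.88. Close relatives of this family share sequence, so a probe set may also read a neighbour. The RNA of NRF2, Nfe2l2, the factor that controls many of these genes, stood at 0.27 (adjusted p = 0.000205), a call that ended under median centring.

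**Figure D2:**
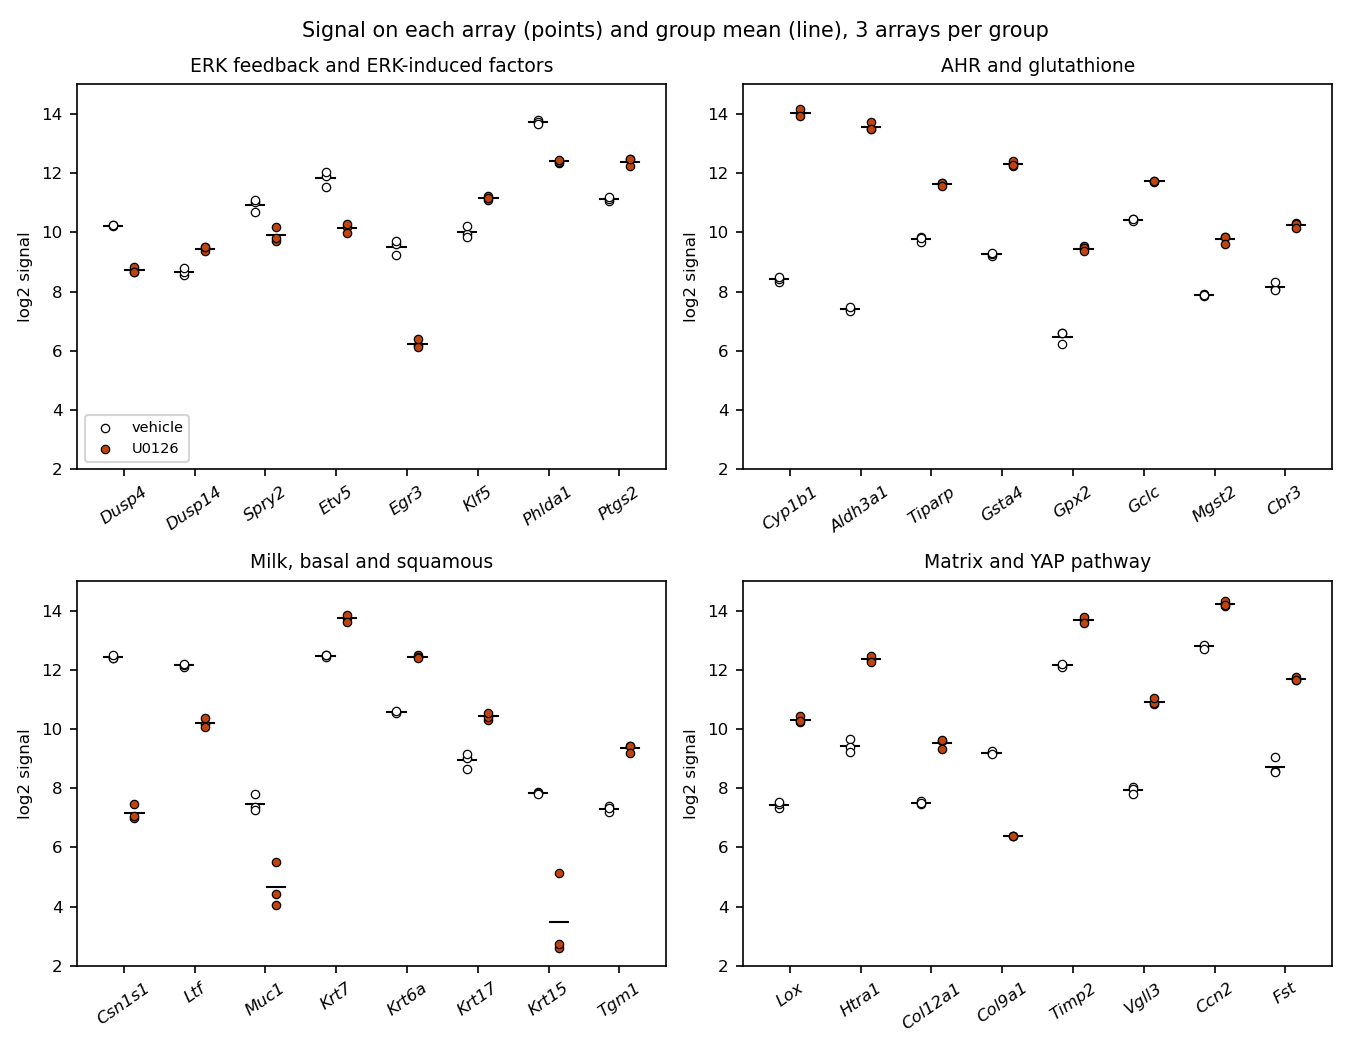
Points are log2 signals of the 3 vehicle arrays (white) and the 3 U0126 arrays (red) for 32 genes in 4 sets, and lines are group means. The groups do not overlap for any gene shown, as for Gsta4 with vehicle at 9.21 to 9.30 and U0126 at 12.23 to 12.41.

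Milk proteins fell. Of 13 caseins, whey and other milk proteins tested, 10 fell and none rose (median −1.62, and −1.07 counting each dim gene at its bound), where 21.3% of all genes fell. Csn1s1, the alpha-S1 casein, read 12.39, 12.40 and 12.49 in vehicle and 7.47, 6.98 and 7.07 under U0126, 38.1-fold lower. Lalba, the alpha-lactalbumin of lactose synthesis, and Muc1, a mucin of the luminal surface, were dim under U0126, Lalba at least 2.21-fold and Muc1 at least 2.29-fold lower. Ltf, the iron-binding lactoferrin, fell from 12.09, 12.17 and 12.19 to 10.16, 10.38 and 10.08 (−1.94, SE 0.08, adjusted p = 1.17e-11). The enzymes of milk fat did not move together: Xdh, which coats fat globules, fell by 1.10 on the log2 scale, while its partner butyrophilin, Btn1a1, rose by 1.09. Of 15 regulators of alveolar fate, 7 fell and 2 rose. Jak2, the kinase of the prolactin receptor, fell by 0.62 on the log2 scale, and Tfap2c by 0.66.

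The caseins Csn1s1 and Csn2 hold the STAT element TTCNNNGAA, which STAT5 recognises after prolactin, before their start. Both lie on chromosome 5 (RefSeq, GRCm38.p6), with the element in capitals:
Csn1s1, chr5:87666078-87666146, plus strand: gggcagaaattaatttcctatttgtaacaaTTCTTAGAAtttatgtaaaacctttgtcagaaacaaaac
Csn2, chr5:87699480-87699548, minus strand: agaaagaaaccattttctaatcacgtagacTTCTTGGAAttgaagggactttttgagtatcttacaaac
The element starts 100 bases before the start of Csn1s1 and 93 before that of Csn2. It was in 3 of 14 promoters of the milk and alveolar genes that fell, in 2 of 3 of those that rose and in 8.3% of all promoters. Csn2, the beta-casein, read 6.54, 6.51 and 6.37 in vehicle and was dim under U0126, at least 1.15-fold lower.

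Some keratins rose and others fell. Krt7, a keratin of simple epithelium, rose from 12.43, 12.49 and 12.50 to 13.75, 13.84 and 13.61 (1.26, SE 0.07, adjusted p = 7.09e-10). The stress-inducible keratins Krt6a and Krt17 rose by 1.86 and 1.48, Krt6a from 10.59, 10.55 and 10.61 to 12.49, 12.44 and 12.40. Krt15, a basal keratin, fell to a dim level, from 7.87, 7.83 and 7.82 to 5.13, 2.60 and 2.75, at least 2.95-fold lower (adjusted p = 8.19e-07). In all, 14 basal keratins and factors held 6 falls and 4 rises. Contractile genes of myoepithelium, in contrast, had 6 rises and no fall among 9 tested (median 0.39). The oxytocin receptor, Oxtr, rose from 8.95, 8.95 and 9.03 to 10.70, 10.60 and 10.41 (1.59, SE 0.07, adjusted p = 1.03e-11), and the actin-binding Cnn2 and Tpm1 rose by 0.86 and 0.63.

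Genes of the cornified envelope, the hard shell of squamous cells, held 8 falls and 3 rises among 18 tested. Of all genes, 21.3% fell and 19.4% rose. Sprr1b and Sprr1a, small proline-rich precursors of the envelope, fell to dim levels, Sprr1b by at least 2.57-fold and Sprr1a by at least 4.40-fold. The protease Klk6 also fell to a dim level, from 10.23, 10.35 and 10.26 to 5.73, 6.16 and 6.08 (adjusted p = 2.41e-14). Tgm1, the transglutaminase that crosslinks the envelope, went against them, from 7.18, 7.40 and 7.34 to 9.43, 9.41 and 9.20 (2.04, SE 0.14, adjusted p = 4.69e-09).

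Of 68 matrix and protease genes tested, 35 rose, 9 fell and 24 were not called. The laminins and other basement membrane genes held 2 rises and 1 fall of 10. Of 18 matricellular proteins, which modulate contact with the matrix, 12 rose and 3 fell (median 1.18, and 0.85 counting each dim gene at its bound). The number of falls was 1 without vehicle replicate 1 or 2 or U0126 replicate 2. Lox, which crosslinks collagen, read 7.32, 7.45 and 7.55 on the vehicle arrays and 10.45, 10.24 and 10.26 under U0126 (2.88, SE 0.18, adjusted p = 1.77e-09). Ccn5, a CCN family member, rose 14.4-fold, from 7.75, 7.22 and 7.49 to 11.30, 11.41 and 11.29. Both were fully separate between the groups.

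Of 17 collagens, 8 rose and 2 fell, 1 of them without vehicle replicate 3 or U0126 replicate 2. Col5a2 and Col8a1 rose by 2.29 and 2.12 and Col12a1 by 2.00, whereas the cartilage collagen Col9a1 fell from 9.18, 9.26 and 9.15 to 6.40, 6.40 and 6.39 (−2.80, SE 0.20, adjusted p = 9.08e-09). Of 23 metalloproteases, related proteases and inhibitors, 13 rose and 3 fell, the falls dropping to 0 without vehicle replicate 2 and to 1 without U0126 replicate 1 or 2. Htra1, a secreted serine protease, rose from 9.66, 9.40 and 9.22 to 12.33, 12.46 and 12.27 (2.93, SE 0.10, adjusted p = 5.94e-13). The membrane protease Adam8 rose by 2.23 and Adam12 by 1.37, and so did inhibitors of metalloproteases, Timp2 by 1.52 and Timp3 by 0.89. Mesenchymal genes held 6 rises and 4 falls of 10 tested, with vimentin (Vim) at 0.96 and tenascin C (Tnc) at 1.46 but Ncam1 at −0.67. Of the fibroblast markers, 8 of 11 lay below the array median on all 6 arrays.

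Members of the YAP pathway, which senses cell contact and tension, rose more often than they fell, 9 against 2 of 15 tested, or 6 against 1 under median centring. Vgll3, a partner of the TEAD factors, read 8.03, 7.96 and 7.79 in vehicle and 10.83, 10.89 and 11.05 under U0126 (3.00, SE 0.11, adjusted p = 1.55e-12). The kinase Lats2 and the tumour suppressor Nf2, both brakes on YAP, rose by 0.69 and 0.56. Among 26 targets of YAP or SRF there were 16 rises and 4 falls, the bright Ccn2 from 12.82, 12.84 and 12.71 to 14.16, 14.32 and 14.20 (1.44, SE 0.06, adjusted p = 1.29e-11). Nt5e, the surface enzyme that makes adenosine, fell among them by 1.38 on the log2 scale.

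**Figure D3:**
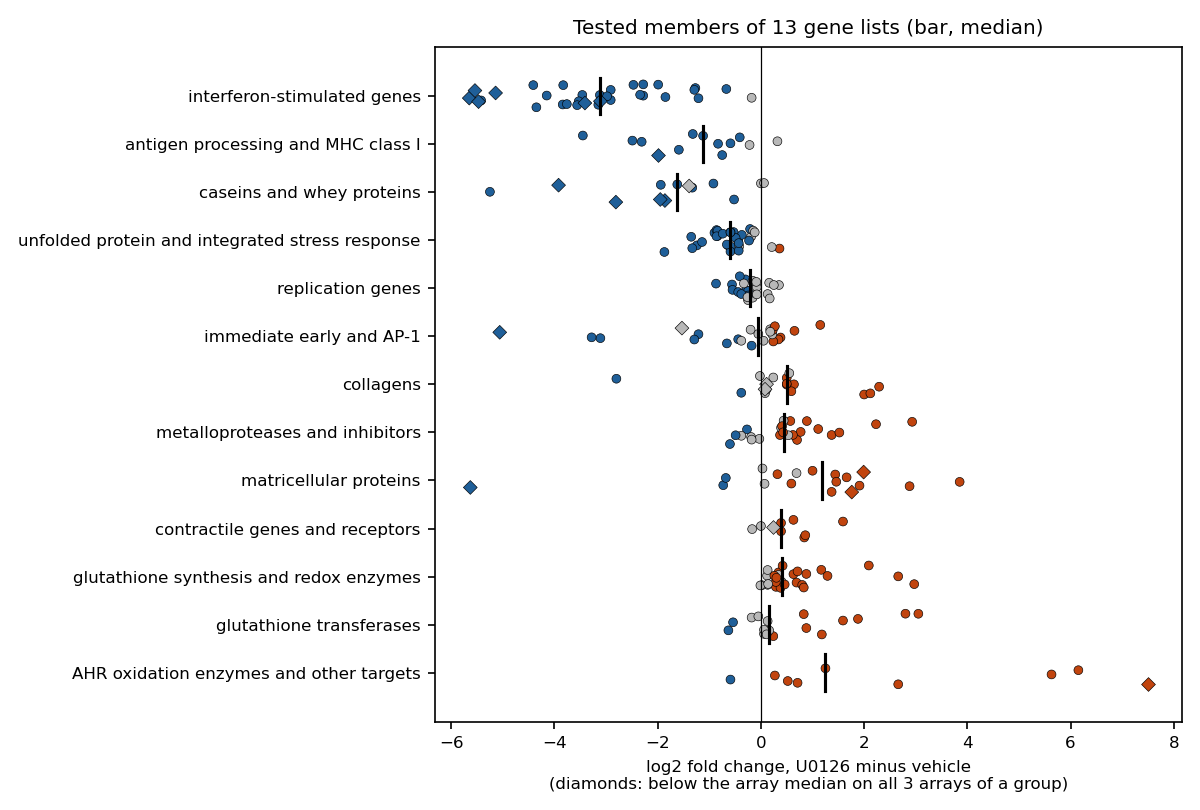
Each point is a tested member of 1 of 13 gene lists, placed by its log2 fold change of U0126 over vehicle, red where called higher, blue where called lower and grey where not called; diamonds are dim in a group and bars are medians. The medians run from −3.12 for interferon-stimulated genes to 1.25 for AHR targets, and collagens and matricellular proteins each hold 1 member far below the rest (Col9a1 at −2.80, and the dim Dmp1 at a fitted −5.63).

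Secreted signals of the TGF-beta, WNT and IGF families and their inhibitors changed gene by gene. Inhba, the activin A subunit, rose from 8.32, 8.29 and 8.46 to 10.16, 10.33 and 10.16 (1.86, SE 0.11, adjusted p = 6.41e-10). Follistatin, Fst, which traps activin, rose from 8.58, 9.05 and 8.55 to 11.74, 11.67 and 11.64 (2.96, SE 0.12, adjusted p = 4.24e-12), and its relative Fstl3 by 0.88. Tgfb3 and Tgfb2 rose by 1.13 and 0.92, while Inhbb and the co-receptor Tgfbr3 fell by 0.71 and 0.60 on the log2 scale. The TGF-beta and BMP ligands and receptors held 5 rises and 4 falls of 17, where 19.4% of all genes rose and 21.3% fell.

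WNT ligands Wnt7b and Wnt5b rose by 1.37 and 1.01. Axin2, a feedback target of WNT, lay at a dim level in vehicle and was at least 2.11-fold higher, from 5.04, 5.16 and 6.27 to 7.11, 7.39 and 7.32 (adjusted p = 4.59e-05). Among Notch genes the receptor Notch1 rose from 11.39, 11.35 and 11.56 to 12.31, 12.43 and 12.21 (0.88, SE 0.07, adjusted p = 3.57e-08) and the ligand Jag1 fell by 1.19 on the log2 scale. Notch receptors and ligands held 6 rises of 10 tested, with 3 left without vehicle replicate 2 or U0126 replicate 2 and 4 without U0126 replicate 1.

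Igfbp2, which binds insulin-like growth factors, was dim in vehicle, at 0.08, 2.61 and 2.61, and read 9.40, 9.31 and 9.27 under U0126, at least 8.75-fold higher (adjusted p = 2.54e-07). Of 14 IGF ligands, receptors and binding proteins tested, 3 rose and 6 fell, against 19.4% and 21.3% of all genes.

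No replication gene rose and 10 of 26 fell (median −0.21), where 19.4% of all genes rose and 21.3% fell. The list held 1 rise under quantile normalization, without U0126 replicate 2 or with another probe set choice. Mcm6, a subunit of the replicative helicase, fell from 10.30, 10.30 and 10.26 to 9.66, 9.70 and 9.86 (−0.55, SE 0.08, adjusted p = 5.57e-05). Of 29 genes of mitosis and the phase before it, 4 rose, 1 fell and 24 were not called (median −0.02, changes from −0.39 to 0.73). Cyclin D1 (Ccnd1), which ERK induces in many cells, did not pass (0.13, adjusted p = 0.0965), nor did the ubiquitin ligase subunit Skp2 (0.01, adjusted p = 0.955). Of the 3 bright probe sets of Ccnd1, at 0.01 to 0.19, 1 was called higher in a fit of all probe sets. The CDK inhibitors went both ways. Cdkn2a, which encodes p16 and ARF and marks senescent cells, rose from 10.09, 10.23 and 10.16 to 10.76, 11.04 and 10.82 (0.71, SE 0.09, adjusted p = 9.02e-06), and its neighbour Cdkn2b rose by 0.47. Cdkn1b, which encodes p27, fell from 11.35, 11.32 and 11.38 to 10.79, 10.61 and 10.74 (−0.64, SE 0.05, adjusted p = 8.92e-08). None of these 3 overlapped between the groups. A second bright probe set of Cdkn1b stood at 0.01 and was not called. Bcl2l11, the cell death gene BIM whose protein ERK destabilises, fell by 0.29 on the log2 scale. Myc rose by 0.23, Aurka by 0.29 and Cdkn1a by 0.21 to 0.43 over its 2 bright probe sets. These rises were no longer called under median centring. Mki67 fell by 0.39 on the log2 scale, a call that ended without vehicle replicate 3.

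Stress genes of the endoplasmic reticulum and of amino acid shortage fell together, 25 of 31 tested, against 1 rise (median −0.59). Atf5 read 11.17, 11.31 and 11.08 in vehicle and 9.35, 9.29 and 9.29 under U0126 (−1.87, SE 0.08, adjusted p = 1.10e-11), and Chac1, which degrades glutathione, fell by 1.24 on the log2 scale. The one-carbon enzyme Aldh1l2 fell from 10.12, 10.05 and 10.16 to 7.30, 7.43 and 7.85 (−2.58, SE 0.13, adjusted p = 1.44e-10), and Psat1 of serine synthesis by 0.67. Phgdh, the first enzyme of that same route, rose by 0.58. Glul, glutamine synthetase, rose 9.99-fold, from 6.36, 6.51 and 6.19 to 9.69, 9.57 and 9.77. Among small heat shock proteins Cryab and Hspb1 rose by 0.93 and 0.77.

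Interferon-stimulated genes fell almost without exception: 32 of 33 tested were lower (median −3.12, and −2.91 with the dim ones at their bound). Gbp3, a guanylate-binding protein of cell defence, read 11.82, 12.03 and 11.53 in vehicle and 5.63, 6.77 and 6.74 under U0126, 42.7-fold lower. Its means were 7.05 under DAPT, 9.84 under TAE226 and 6.86 under PP2. Of the 32 falls, 6 were also called, in the same direction, against every other inhibitor. The sensors Zbp1 and Ddx60 fell to dim levels, Zbp1 by at least 14.9-fold and Ddx60 by at least 11.5-fold. Antigen presentation by MHC class I followed, with 11 of 13 genes lower and none higher (median −1.12, or −0.95 at the bound). Psmb8, an immunoproteasome subunit, fell from 10.59, 10.78 and 10.32 to 7.50, 6.91 and 6.92 (−3.45, SE 0.18, adjusted p = 2.00e-10), and the peptide transporter Tap1 by 1.59 on the log2 scale. Sensors and receptors upstream held 7 falls of 14, the RNA sensor Tlr3 at −1.14. Of the myeloid markers given above, Cd14 and S100a8 fell as well, while 14 of 19, Ptprc among them, lay below the median on all 6 arrays. Their part in these falls was not tested.

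The interferon-stimulated response element, searched as GAAA, any 2 bases and GAAA, is bound by interferon-activated factors. It was found on either strand in 14 of 44 promoters (31.8%) of the interferon and antigen genes that fell, in 0 of 8 of those not called, and in 3.44% of all promoters. Gbp3 is shown because it fell 42.7-fold and 1 of its 2 promoters in the table holds the element; the other does not. Ifit1 and Ifit3, chosen after their values were seen, are shown because each has more than one copy. The element is in capitals and reads TTTC, any 2 bases and TTTC on this strand (RefSeq, GRCm38.p6):
Gbp3, chr3:142559969-142560043, plus strand: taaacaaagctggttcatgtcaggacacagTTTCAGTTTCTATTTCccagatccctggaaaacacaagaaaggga
Ifit1, chr19:34640755-34640843, plus strand: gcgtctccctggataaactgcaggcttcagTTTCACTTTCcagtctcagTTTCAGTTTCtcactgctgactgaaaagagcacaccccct
Ifit3, chr19:34583343-34583446, plus strand: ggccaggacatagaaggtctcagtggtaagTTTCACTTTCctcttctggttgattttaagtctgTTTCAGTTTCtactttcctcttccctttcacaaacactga
These 3 stretches hold 2 copies before the start, and those of Gbp3 overlap. Ifit3, whose protein works in a complex with that of Ifit1, read 10.07, 10.62 and 9.66 in vehicle and 6.47, 7.21 and 7.29 under U0126 (−3.12, SE 0.31, adjusted p = 5.99e-07). A match of letters is a description and was not tested as a site.

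Chemokines and defence proteins did not share one direction. Cxcl10 and Ccl5, chemokines that interferon also induces, fell to dim levels, Cxcl10 by at least 4.80-fold and Ccl5 by at least 6.36-fold, and the neutrophil chemokine Cxcl2 fell from 9.36, 9.33 and 9.23 to 7.09, 6.67 and 7.05 (−2.37, SE 0.27, adjusted p = 3.02e-06). Ccl6 rose from 6.60, 6.80 and 6.50 to 8.92, 9.86 and 9.51 (2.80, SE 0.17, adjusted p = 8.48e-10), and the mucosal chemokine Ccl28 by 1.66. In all, 10 of 27 chemokines and cytokines rose and 7 fell, where 19.4% of all genes rose and 21.3% fell. The secreted protease inhibitor Wfdc2 rose by 1.49. The inflammatory caspases Casp1 and Casp12 fell by 1.14 and 1.41 on the log2 scale. The 14 caspase and death receptor genes tested held 7 falls and 2 rises, against 21.3% and 19.4% of all genes.

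**Figure D4:**
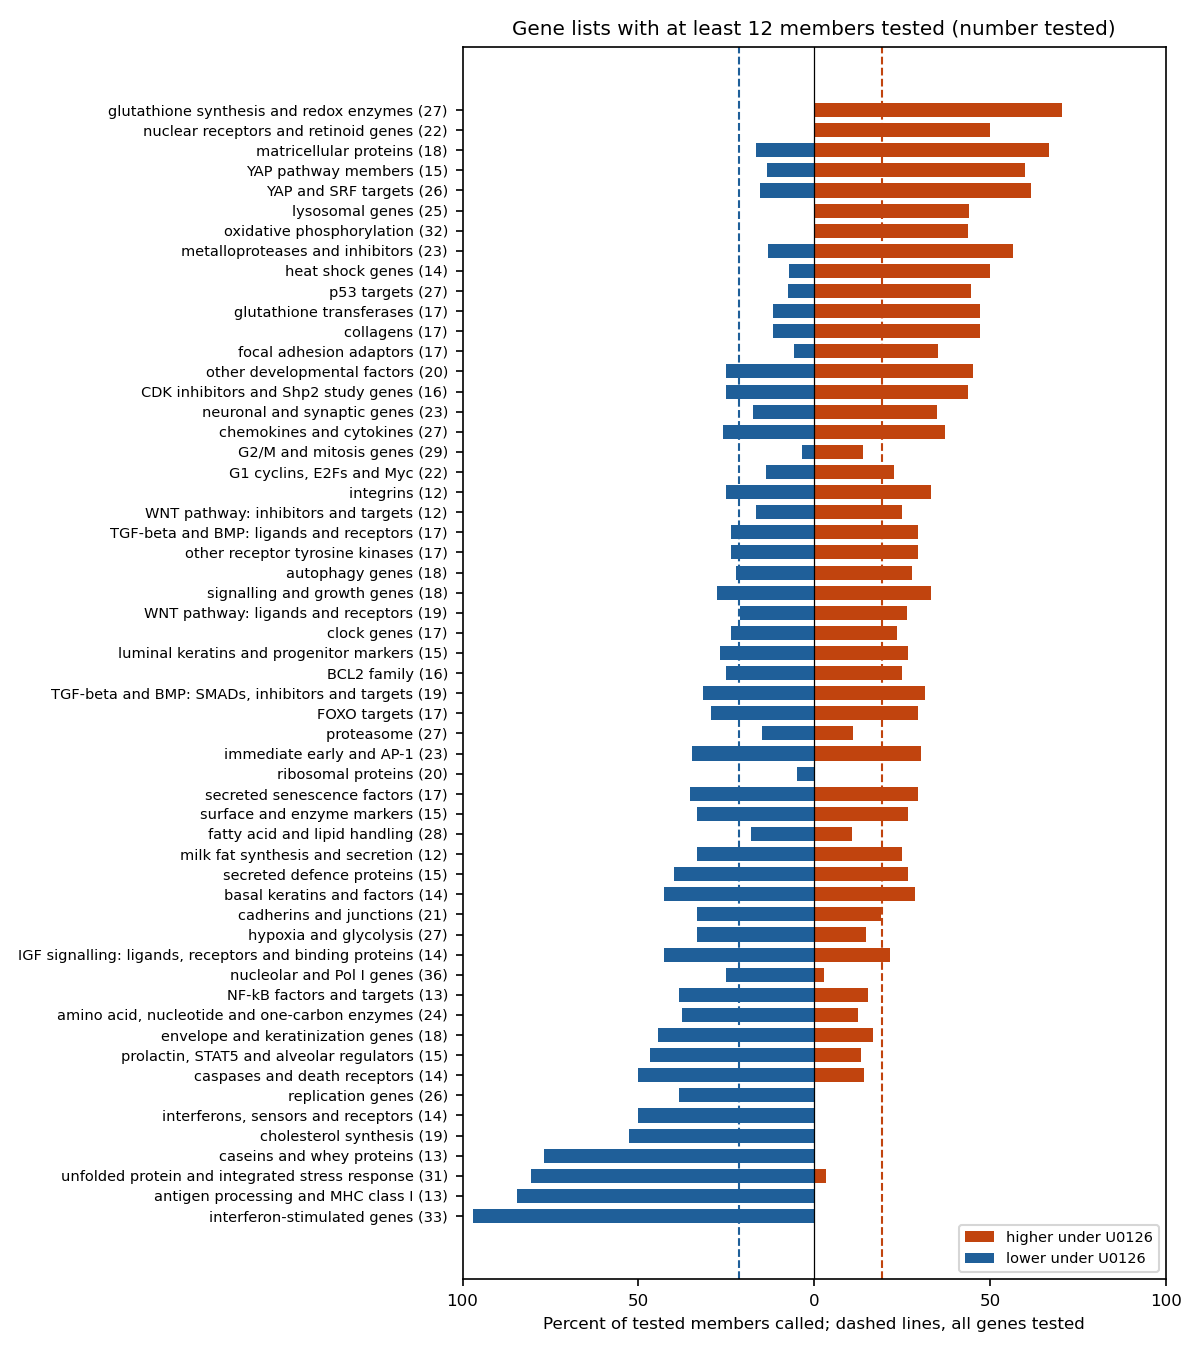
Bars give the percent of tested members called higher (red, right) and lower (blue, left) under U0126 in each gene list with at least 12 members tested, with the number tested in brackets and dashed lines at 19.4% and 21.3% for all genes. Interferon-stimulated, antigen, stress and milk genes reach far to the left and glutathione, redox and matrix genes far to the right. The bars to the right are shorter under median centring, that of oxidative phosphorylation with 1 rise in place of 14 and that of lysosomal genes with 4 in place of 11.

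Genes that set U0126 apart from the rest of the study were those called in the same direction against vehicle and against each other inhibitor, with all 4 contrasts sharing the U0126 arrays. Against DAPT 44.7% of genes were called (21.6% higher, 23.1% lower), against TAE226 37.1% (17.7% higher, 19.4% lower) and against PP2 55.6% (27.9% higher, 27.7% lower). They numbered 1597 of 11458 (13.9%), 725 higher (6.33%) and 872 lower (7.61%), and with median centring 544 higher and 345 lower. All 10 of the milk proteins that fell were among them, as were 6 of the 32 interferon genes that fell. So were 12 of the 19 glutathione and redox enzymes and 5 of the 8 AHR targets that rose. None of the 9 ERK feedback genes or of the 10 replication genes that fell was among them. Over all called genes the shares apart were 32.7% of those higher and 35.7% of those lower. Mal, a proteolipid of apical transport and myelin, had means of 7.29 in vehicle, 10.25 under DAPT, 10.35 under TAE226, 9.40 under PP2 and 13.73 under U0126. Hopx, a homeodomain protein without DNA binding, stood at 12.73 under U0126 and at 8.23 to 9.90 in the other groups. Msln, mesothelin of serous surfaces, was dim in vehicle, read 8.03, 8.37 and 8.18 under U0126 and rose at least 3.98-fold.

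On the other side, Clca3a2, a regulator of chloride channels with close relatives that a probe set may also read, had means of 9.16 in vehicle, 9.61 under DAPT, 7.76 under TAE226 and 11.09 under PP2. It was dim under U0126, at 3.59, 0.43 and 1.18, and fell at least 7.37-fold (adjusted p = 4.74e-09). The uncharacterised gene 2310057J18Rik fell at least 25.6-fold, from 10.78, 11.07 and 11.02 to 5.17, 4.29 and 2.72. Clec2d, a surface ligand of an inhibitory receptor on natural killer cells, remained above the array median under U0126, with a mean of 7.08 against 10.35 to 11.99 in the other groups. Apoe, the lipid carrier, read 7.78, 7.55 and 7.74 in vehicle and was dim under U0126, at least 2.66-fold lower.

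**Figure D5:**
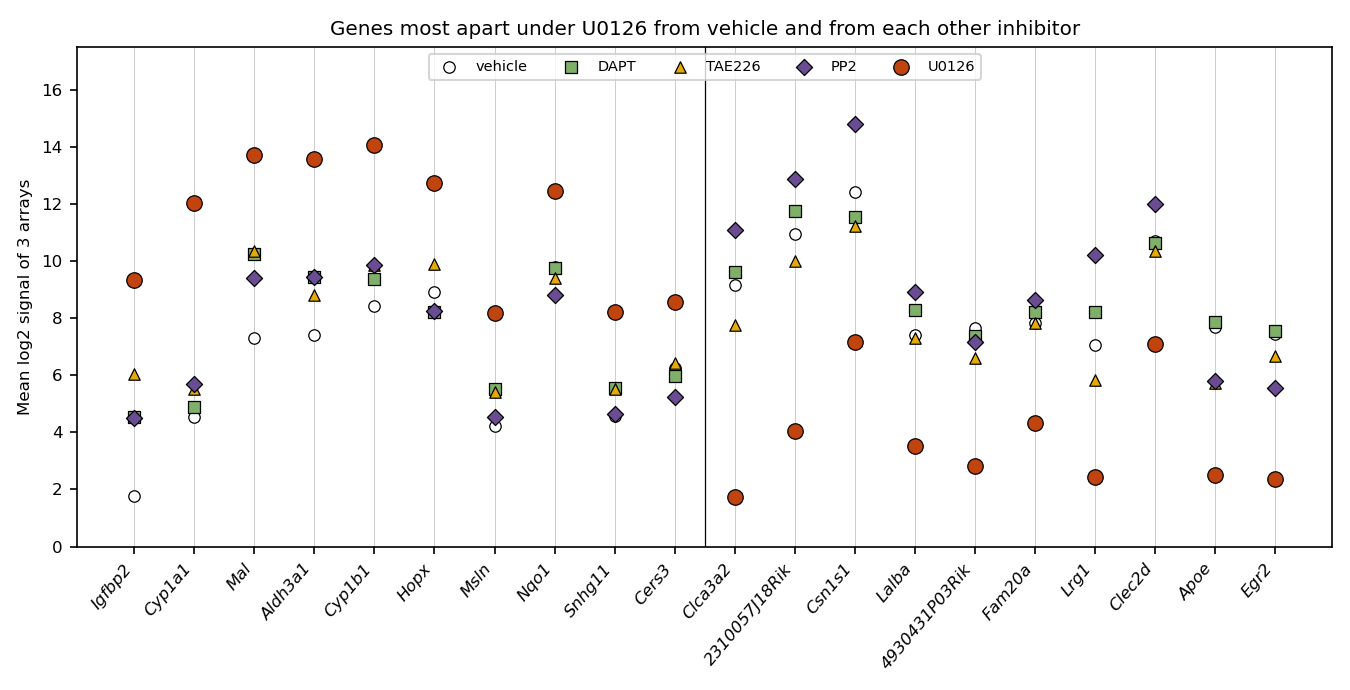
Symbols are mean log2 signals of 3 arrays in each of the 5 groups for the 10 genes furthest above and the 10 furthest below all other groups under U0126. The red U0126 symbol is the extreme one in every column, as for Cyp1a1 with 12.02 against 4.52 to 5.70.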

How the data were processed

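Total RNA, 250 ng per sample, was labelled by priming from the 3′ end and read on Affymetrix Mouse430_2 arrays, per the labels' protocols. The deposited values are linear signal intensities, made by the authors with Affymetrix Expression Console and MAS5, per the submitters' processing notes; the sources used here give no versions, settings or detection calls. In the deposited values each array's trimmed mean was 499.8 to 499.9, and array medians were 66.0 to 78.7 in vehicle and 73.1 to 83.6 under U0126. This scaling equalises means but not distributions, so genes that shift together can move the values of the rest.

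Of 45101 probe sets, 34945 named 1 gene, 932 several and 9160 none, and 64 were controls; 34741 of the first were matched to RefSeq by Entrez ID. Each of 18193 genes was read by its probe set of highest mean log2 signal over 15 arrays. In 529 tested genes its name ends in _x_at, which marks possible cross-hybridisation. The log2 intensities, without pseudocount, were fitted over all 15 arrays with limma 3.58.1 in R 4.3.3 (1 coefficient per group, intensity trend, 10 residual and 6.1 prior degrees of freedom). The adjusted p values printed come from that fit, apart from that of Ahr with its probe sets averaged. Those of probe sets naming no gene come from a limma fit of their own. The median standard error was 0.0975, and precision is limited by how few arrays each group has. The fit was tested on simulated data with known changes.

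Replicates were compared before averaging. The median absolute log2 difference was 0.096 to 0.15 among vehicle arrays, 0.127 to 0.133 among U0126 arrays and 0.24 to 0.274 between them, and no pair of arrays had more than 2 identical values.

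Named genes are the 15 greatest rises and 15 greatest falls among called genes without overlap whose brighter group exceeded the median of each of its arrays, at most 6 called members per list role with the greatest change, 22 genes of the pathway and the study whatever their values, the 10 rises and 10 falls furthest apart from the other groups by the smallest of 4 contrasts, and 1 gene for a count of 5 or fewer. Cell type markers, promoters and probe sets named besides these are identified where they appear. Not all genes of the named set are described in the text. The 36 gene lists and all members were chosen with earlier results of these data known, so their counts are descriptions, set beside those over all genes. Of the lists not described, the counts are plotted where at least 12 members were tested. Promoters are RefSeq's 250 bases before to 50 after each start, and coordinates are printed only from that table. Alternatives tried were array scaling, pseudocount, filter, probe set choice, variance trend, arrays fitted, a replicate block and leaving out each array.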

Additional observations from a re-analysis of the deposited data

Results flagged for a closer look

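Probe sets that name no gene in the platform annotation were not used in the comparisons above. Of 2755 tested the same way in a limma fit of their own, 270 (9.80%) were higher and 196 (7.11%) were lower under U0126. The 3 greatest fitted rises above the vehicle level are given for that reason, followed by the 3 greatest fitted falls. Probe set 1436737_a_at rose by 2.90 on the log2 scale, from 8.07, 8.27 and 7.53 in vehicle to 10.55, 10.93 and 11.11 (adjusted p = 1.92e-09). Probe set 1428471_at rose by 2.79, from 8.61, 8.62 and 8.55 to 11.24, 11.45 and 11.44 (adjusted p = 1.21e-12). Probe set 1458884_at, dim in vehicle at 2.27, 5.97 and 5.92, read 7.54, 7.48 and 7.52 under U0126 (fitted change 2.79, adjusted p = 0.00728). Its place among the rises rests on that dim level. Probe set 1423555_a_at fell by 4.51 on the log2 scale, from 12.24, 12.36 and 12.30 to 7.53, 7.95 and 7.89 (adjusted p = 8.5e-14). Probe set 1454691_at fell by 3.31, from 10.01, 9.95 and 10.04 to 6.96, 6.43 and 6.68 (adjusted p = 1.71e-13). Probe set 1438027_at fell from 6.92, 7.49 and 7.03 to a dim level of 3.41, 3.30 and 4.67 (fitted change −3.35, adjusted p = 0.0219). The genes these probe sets read are not named here.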

How the results depend on the processing

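Over 16 alternatives, 330 of the 408 named genes called kept their call and direction. With all probe sets of a gene averaged, 5 turned: Mknk1 to 0.14, Ccnd3 to −0.24, Atg7 to −0.17, Sc5d to 0.01 and Rps6 to 0.16, none called then (the cause was not tested). Median centring gave 1198 genes higher (2219 without it) and 345 lower and apart from the other inhibitors (872), and a pseudocount of 50 gave 199 at least 2-fold higher (316), since it shrinks the folds of dim genes. All other counts over all genes stayed within 1.5 times. Leaving out 1 array gave 4097 to 4323 genes called, 302 to 330 at least 2-fold higher and 330 to 339 lower. With the 6 arrays fitted alone, 4155 genes were called, and 4047 of the 4660 calls (86.8%) were made again in the same direction. The contrasts with the other inhibitors were not run on the 6 arrays alone. The replicate numbers did not pair the samples: same-numbered arrays had residual correlations of 0.023, 0.141 and −0.187. With the replicate number as a block, 4507 genes were called, 2142 higher and 2365 lower, and no named gene's call changed. Signal limits calls: with genes ranked by mean signal in 3 equal bins, 27.3%, 44.0% and 50.8% were called from the dimmest bin to the brightest.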

Other observations

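Some clock, lineage, retinoid and lysosomal genes also changed. Cry1, a repressor of the circadian clock, fell from 9.67, 9.88 and 9.77 to 9.04, 8.50 and 9.24 (log2 fold change −0.85, SE 0.16, limma adjusted p = 0.000482), and the clock activator Npas2 fell by 0.76 on the log2 scale, while the clock output gene Dbp rose by 0.70. Clock genes as a list held 4 rises and 4 falls of 17 tested, where 19.4% of all genes rose and 21.3% fell. Foxj1, the master factor of motile cilia, rose from 7.62, 7.59 and 7.50 to 10.78, 10.80 and 10.68 (3.18, SE 0.12, adjusted p = 1.76e-12), and the lineage factor Sox10 fell by 0.90 on the log2 scale. A second bright probe set of Sox10 stood at −0.07 and was not called. Of 22 nuclear receptors and retinoid genes, 11 rose (8 under median centring) and none fell. Crabp2, which delivers retinoic acid, rose by 1.06, and the vitamin D hydroxylase Cyp24a1 was at least 1.99-fold higher than its dim vehicle level. The lysosomal enzymes Hexa and Neu1 rose by 1.30 and 0.89, and of 25 lysosomal genes 11 rose, 4 under median centring and 7 without U0126 replicate 2.

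Probe sets of 1 gene did not always move one way. Of 1594 genes with at least 2 probe sets called in a fit of all probe sets, 99 (6.21%) had calls in opposite directions, 94 of 1560 when only bright probe sets were counted. Rnf213 went from 13.08 ± 0.01 to 10.99 ± 0.02 by its bright probe set and from 6.08 ± 0.15 to 6.77 ± 0.37 by another (SD, n = 3 each). Tardbp, an RNA-binding protein, went from 11.61 ± 0.10 to 11.04 ± 0.17 by one and from 9.45 ± 0.12 to 10.30 ± 0.13 by another. These genes were chosen for their opposite calls, after their values were seen.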
